A study of Mus musculus with 19 samples.

Results

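The genes described here are 9 that peroxisome proliferator-activated receptors (PPARs) are known to control or that belong to that system: Angptl4, Pdk4, Cpt1a, Acot1, Acot2, Ucp3, Plin2, Ppara and Ppargc1a. They were taken by matching the RefSeq accession of each array probe to a gene symbol, which gave 14 probes for the 9 genes, out of 20660 genes matched in this way. Of the 14 probes, 12 were bright enough to be tested, and each of the 9 genes had at least 1 tested probe, against 14735 genes tested in all. Where a gene had several probes, the tested one with the brightest lung signal is called its lead probe.

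Lung RNA came from male MutaTMMouse animals of about 12 weeks, a transgenic strain made for mutation assays. The vehicle group D0 (5 mice) received olive oil by gavage daily for 28 days. The groups D1 (4 mice), D2 (5 mice) and D3 (4 mice) received a mixture of 8 polycyclic aromatic hydrocarbons (8PAH-Mix) in olive oil, at 15, 30 and 60 mg benzo[a]pyrene (BaP) equivalents/kg-bw/day. The label of mouse 23 puts it in D2, where it was kept, but its number lies in the D1 range and the numbers of animals stated for each dose in the methods would fit D1, while its array lay in column 3 of its slide, which held D2 on the other slides. With it in D1, the log2 change of Angptl4 at D2 was -0.47 (limma adjusted p = 0.470) in place of -0.64, and the changes at D1 were -0.42 for Angptl4 (limma adjusted p = 0.392) in place of -0.20 and -0.24 for Acot1 (limma adjusted p = 0.459) in place of -0.14. Lungs were taken 72 h after the final dose, so all groups, D0 included, had been gavaged with a fat and then left undosed for that time. Each value is the log2 ratio of the Cy5 signal of lung RNA over the Cy3 signal of Universal Mouse Reference RNA, a pool from 11 mouse cell lines. Lung RNA was always in Cy5, so a dye effect cannot be told apart from the lung-to-reference ratio itself, and the number of arrays limits the precision.

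PPARs are nuclear receptors that sense fatty acids and their derivatives. With the retinoid X receptor (RXR) as partner they bind DNA elements near genes of lipid uptake, storage and oxidation, and PPAR-alpha in particular drives the fasting response of liver, heart and muscle. In the lung, PPAR-gamma is best known from alveolar macrophages and lipid-handling cells, where fatty acids also feed surfactant synthesis.

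A repeat of the hexamer AGGTCA with a spacer base between the copies, written AGGTCANAGGTCA, forms the classical PPAR-RXR element (DR1). Promoter sequences (RefSeq, GRCm38.p6, 250 bases before to 50 after the start) were found for 8 of the 9 genes, all but Angptl4. The stretches before the start are shown for Plin2 and Ucp3, which held the closest matches to this element, and for Acot1, which fell at D3. Capitals mark a match with at most 2 mismatches on either strand. Plin2 lies on the minus strand (chr4:86670060-86670309), Ucp3 on the plus strand (chr7:100472741-100472990) and Acot1 on the plus strand (chr12:84009252-84009501), and each is written 5′ to 3′ in the direction of its gene.
Plin2: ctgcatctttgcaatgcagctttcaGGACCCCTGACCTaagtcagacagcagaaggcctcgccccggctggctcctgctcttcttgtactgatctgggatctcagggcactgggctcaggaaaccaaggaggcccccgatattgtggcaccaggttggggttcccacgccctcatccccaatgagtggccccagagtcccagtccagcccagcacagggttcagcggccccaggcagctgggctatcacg
Ucp3: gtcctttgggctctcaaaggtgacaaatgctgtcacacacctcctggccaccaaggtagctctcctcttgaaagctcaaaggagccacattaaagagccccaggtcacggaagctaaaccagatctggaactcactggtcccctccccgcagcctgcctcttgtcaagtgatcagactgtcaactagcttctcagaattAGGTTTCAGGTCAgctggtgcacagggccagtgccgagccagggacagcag
Acot1: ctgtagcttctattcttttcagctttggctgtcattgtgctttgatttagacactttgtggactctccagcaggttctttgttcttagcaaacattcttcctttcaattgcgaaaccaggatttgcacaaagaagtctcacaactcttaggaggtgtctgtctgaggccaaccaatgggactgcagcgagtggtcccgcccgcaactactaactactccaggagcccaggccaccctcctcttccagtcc

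An exact copy of the 13-base element was in none of the 8 promoters, and in 13 of all 32851 promoters (0.0396%). With up to 1 mismatch in the hexamers the counts were 0 of 8 and 182 of all (0.554%). With up to 2 mismatches they were 2 of 8 and 1268 of all (3.86%). The Plin2 match lies on the strand opposite to the gene with its first base at position -225 from the start, and the Ucp3 match lies on the gene's strand at position -51. A match of letters is a description and not a binding site, and the windows leave out introns and distant enhancers.

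At the top dose, Angptl4 and Acot1 fell, and no other of the 9 genes was called. A call here means a change of 1.5-fold or more with an adjusted p (Benjamini-Hochberg, over 30999 probes) no higher than 0.05 in a limma model of all 18 mice. At D3, 2 of the 9 lead probes were called, both lower, against 2.43% of all tested probes. At D1 and at D2 none was called, with 1.06% and 0.626% of all probes called, and at an unadjusted p of at most 0.05 the lead probes of Cpt1a and Ucp3 differed at D1, and those of Angptl4, Cpt1a, Acot1, Ucp3 and Plin2 at D2, where 19.8% and 14.7% of all probes passed that p. The median log2 change of the 9 lead probes was -0.07 at D1, -0.06 at D2 and -0.19 at D3, and that of all genes by lead probe was 0.03, 0.02 and 0.03.

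**Figure D1:**
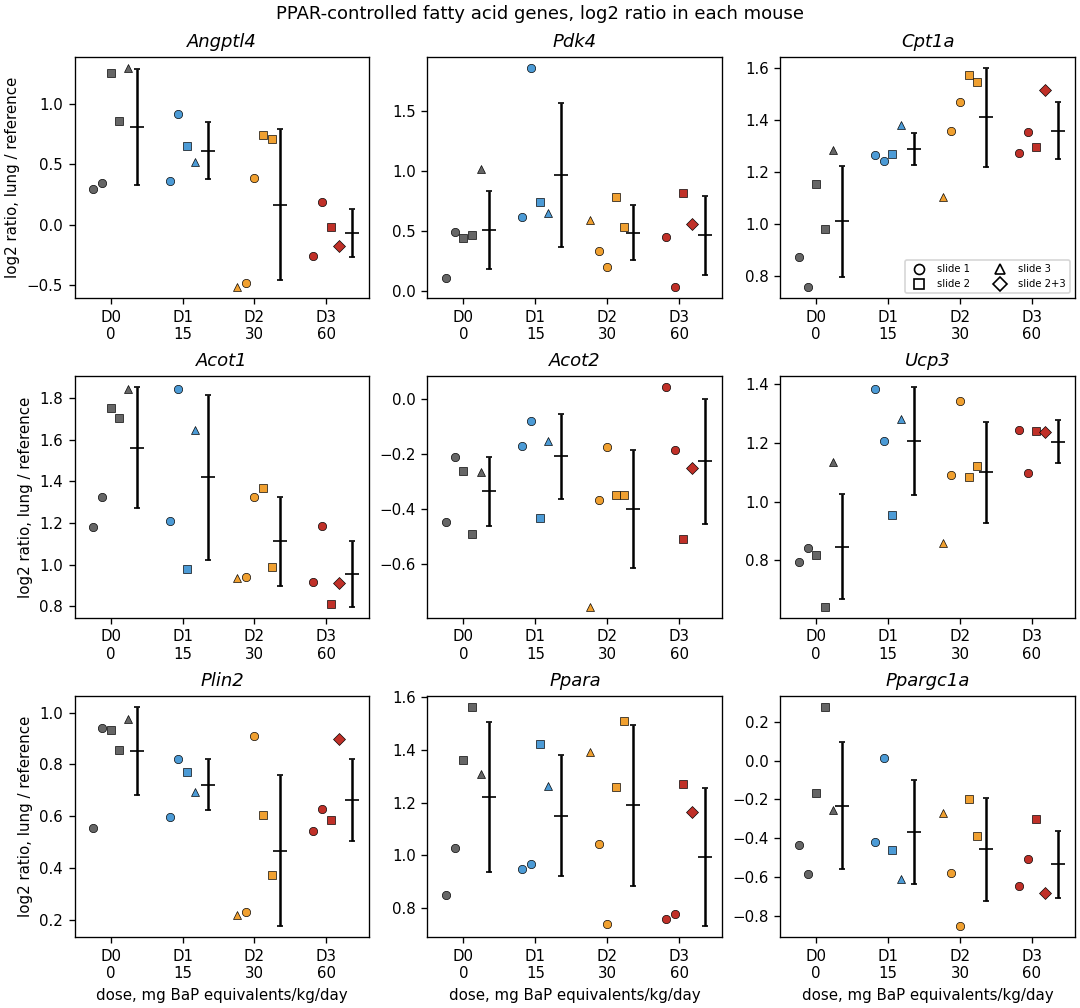
Log2 ratio of lung over reference RNA in each mouse for the lead probe of each of the 9 genes, by dose group (x axis, mg BaP equivalents/kg/day), with marker shape for the slide of the array. The bar beside each group is the mean ± SD. All 4 D3 mice lie below all 5 D0 mice for Angptl4, while for Ppara the mice of slide 1 lie below those of the other slides in every group.

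Angptl4 (NM_020581, chromosome 17) encodes a secreted inhibitor of lipoprotein lipase, the enzyme that frees fatty acids from circulating triglyceride. Its log2 ratio in D0 was 0.30, 0.34, 1.26, 0.86 and 1.30 in mice 1 to 5. In D1 it was 0.36, 0.92, 0.65 and 0.52 in mice 21, 22, 24 and 25. In D2 it was -0.49, 0.39, 0.75, 0.71 and -0.52 in mice 26, 28, 29, 30 and 23. In D3 it was -0.26, 0.19, -0.02 and -0.18 in mice 31, 32, 34 and 35. The D3 mice all lay below the lowest D0 mouse, whereas D1 and D2 both overlapped with D0, and mice 26 and 23 of D2 were the lowest of all.

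The group means of Angptl4 thus ran downward with dose, from 0.81 ± 0.48 (SD, n = 5) in D0 through 0.61 ± 0.24 (n = 4) in D1 and 0.17 ± 0.63 (n = 5) in D2 to -0.07 ± 0.20 (n = 4) in D3. The log2 change at D3 was -0.88 ± 0.26 (SE; 1.84-fold lower; limma adjusted p = 0.0335). At D2 the change was -0.64 ± 0.25 (SE) and was not called (limma adjusted p = 0.206), and at D1 it was -0.20 ± 0.26 (limma adjusted p = 0.740). Neighbouring doses did not differ beyond their spread, with limma adjusted p = 0.608 for D2 against D1 and 0.792 for D3 against D2. Within slides, D3 minus D0 was -0.36 on slide 1, -1.16 on slide 2 and -1.47 on slide 3. D0 and D3 each had 2, 2 and 1 mice on these slides, where mouse 35 counts on slides 2 and 3 through its 2 arrays. With slide as a block the change was -0.87 (limma adjusted p = 0.0198).

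Acot1 (NM_012006, chromosome 12) encodes a cytosolic thioesterase that splits long-chain acyl-CoA into free fatty acid and CoA. Its log2 ratio in D0 was 1.18, 1.32, 1.75, 1.71 and 1.84 in mice 1 to 5. In D1 it was 1.21, 1.84, 0.98 and 1.65 in mice 21, 22, 24 and 25. In D2 it was 0.94, 1.33, 1.37, 0.99 and 0.94 in mice 26, 28, 29, 30 and 23. In D3 it was 0.91, 1.18, 0.81 and 0.91 in mice 31, 32, 34 and 35. The D3 mice lay below the D0 mice except that mouse 32 matched mouse 1, the lowest of D0, to 2 decimals.

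The mean log2 ratio of Acot1 was 1.56 ± 0.29 (SD, n = 5) in D0, 1.42 ± 0.40 (n = 4) in D1, 1.11 ± 0.22 (n = 5) in D2 and 0.96 ± 0.16 (n = 4) in D3. The log2 change at D3 was -0.60 ± 0.17 (SE; 1.52-fold lower; limma adjusted p = 0.0225), just past the 1.5-fold threshold. At D2 it was -0.45 ± 0.16 (limma adjusted p = 0.161) and at D1 -0.14 ± 0.17 (limma adjusted p = 0.701). Within slides D3 minus D0 was -0.20, -0.89 and -0.87 on slides 1, 2 and 3, and with slide as a block the change was -0.60 (limma adjusted p = 0.0243).

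Angptl4 and Acot1 were also the 2 of the 9 genes called for a linear trend over dose, against 1.53% of all probes. The fitted log2 change from D0 to D3 was -0.92 ± 0.25 (SE; limma adjusted p = 0.0299) for Angptl4 and -0.63 ± 0.16 (limma adjusted p = 0.0217) for Acot1. With mouse 23 counted in D1 the trend call of Angptl4 was lost (-0.82, limma adjusted p = 0.0644) and that of Acot1 was not (-0.59, limma adjusted p = 0.0355). Leaving out any 1 of mice 3, 4, 5, 31, 34 and 35 ended the trend call of Angptl4 (-0.96 to -0.82; limma adjusted p = 0.0502 to 0.0742), and leaving out mouse 3, 5, 34 or 35 ended that of Acot1 (-0.64 to -0.57; limma adjusted p = 0.0498 to 0.0536, with the change under 1.5-fold without mouse 5). Median centring of each array in place of loess ended both (-0.69 and -0.46, both with limma adjusted p = 0.975). The F test over the 3 doses called none of the 9 lead probes at an adjusted p of at most 0.05, against 7.79% of all probes, with adjusted p = 0.0997 for Angptl4, 0.0683 for Acot1, 0.0531 for Cpt1a and 0.0766 for Ucp3 (limma). Between doses none was called for D2 against D1 (0% of all probes), D3 against D2 (0.106%) or D3 against D1 (0.145%). At an unadjusted p under 0.05 (limma) D2 against D1 held Pdk4 (9.82% of all probes, 3045 in number), D3 against D2 no lead probe (11.7% of all), D3 against D1 Angptl4, Pdk4 and Acot1 (7.68% of all), and the F test Angptl4, Cpt1a, Acot1, Ucp3 and Plin2 (22.5% of all). The calls at D3 are near the threshold: leaving out any 1 of mice 3, 4 and 5 of D0 or 31, 34 and 35 of D3 ended both, with a log2 change of -0.90 to -0.76 for Angptl4 and -0.59 to -0.53 for Acot1. With median centring the D3 change was -0.59 for Angptl4 and -0.38 for Acot1, both with limma adjusted p = 0.848. In that setting 98 of all 30999 probes were called at D3, in place of 754.

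Both differences lay in the lung channel. On the log2 scale, after quantile normalization of each channel alone, D3 minus D0 was -0.83 in the red signal of Angptl4 and -0.03 in the green reference signal. For Acot1 it was -0.60 in red and -0.02 in green. In bulk lung RNA, fewer cells of a type and less RNA per cell cannot be told apart.

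**Figure D2:**
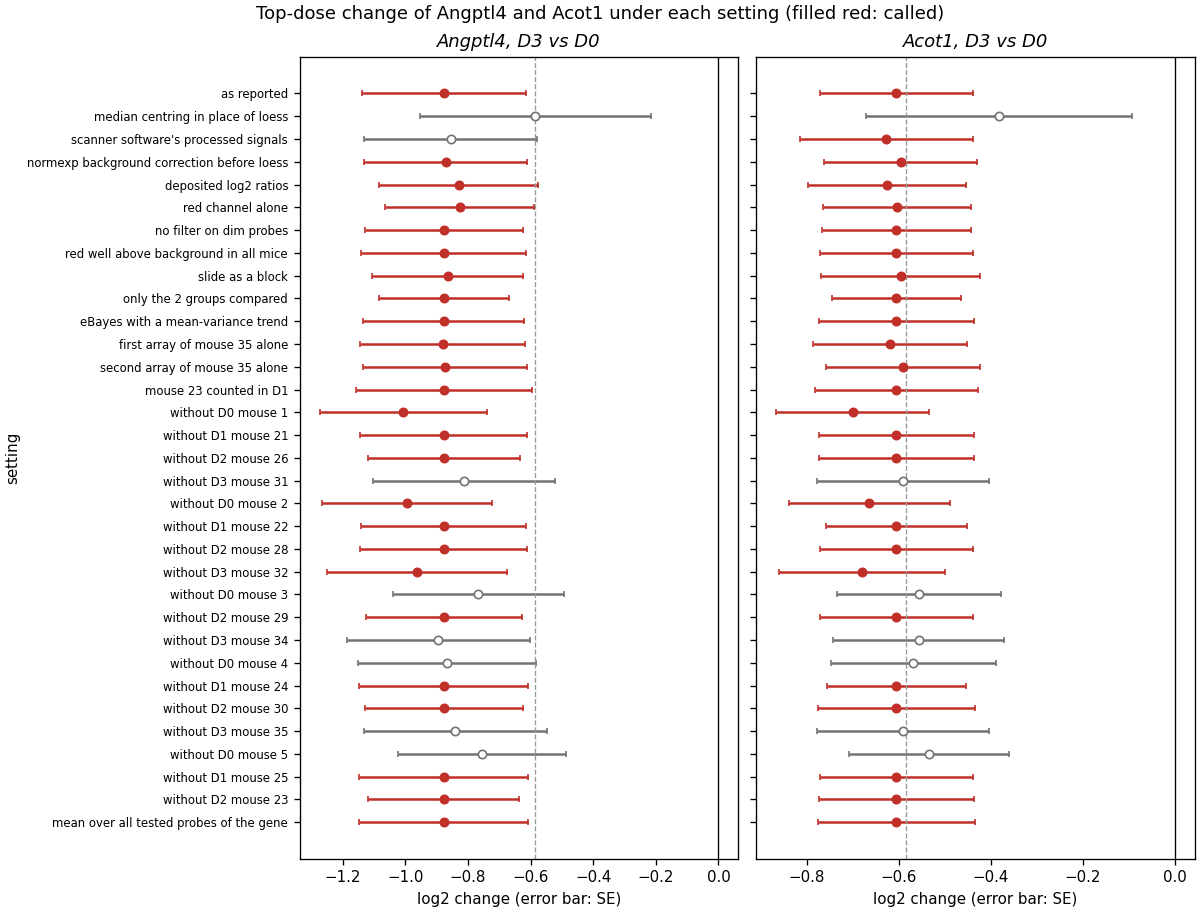
Log2 change of Angptl4 (left) and Acot1 (right) at D3 against D0 under each setting (y axis), with the SE as error bar, filled red where called and open grey where not. The dashed line is a 1.5-fold decrease. Every setting gave a decrease, and 6 of the 18 omissions of a single mouse ended each call.

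Fatty acid entry into mitochondria was represented by Cpt1a (NM_013495, chromosome 19), the outer-membrane enzyme that commits long-chain fatty acids to oxidation. Its lead probe, printed in 10 spots per array, gave 0.87, 0.75, 1.15, 0.98 and 1.28 in D0 mice 1 to 5. It gave 1.26, 1.24, 1.27 and 1.38 in D1, 1.36, 1.47, 1.57, 1.55 and 1.1 in D2, and 1.27, 1.35, 1.29 and 1.51 in D3, with mice in the order used above. All 5 mice of D2 and all 4 of D1 and of D3 lay above the D0 mean of 1.01, but mouse 5 of D0 overlapped with each dose group.

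The log2 change of Cpt1a was 0.28 ± 0.11 (SE) at D1, 0.40 ± 0.10 at D2 and 0.35 ± 0.11 at D3. It passed the adjusted p at D2 (limma adjusted p = 0.0441) and at D3 (limma adjusted p = 0.038) with a change under 1.5-fold, so it was not called. Its second probe, in a single spot, gave 0.29 at D1, 0.00 at D2 and 0.13 at D3 (limma adjusted p = 0.567 at D3), and the r between the probes over 18 mice was 0.305. With the mean of both probes the D2 change was 0.20 (limma adjusted p = 0.289).

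By the adjusted p alone, with no threshold on fold, 0, 1 and 4 of the 9 lead probes passed at D1, D2 and D3, against 4.74%, 2.09% and 12.4% of all probes. The 4 at D3 were Angptl4 and Acot1, both lower, and Cpt1a and Ucp3, both higher.

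Ucp3 (NM_009464, chromosome 7) encodes a mitochondrial carrier of the uncoupling protein family, known mainly from skeletal muscle and brown fat. Its lead probe gave 0.79, 0.84, 0.82, 0.64 and 1.14 in D0 and 1.38, 1.21, 0.95 and 1.28 in D1. It gave 1.09, 1.34, 1.08, 1.12 and 0.86 in D2, and 1.24, 1.1, 1.24 and 1.24 in D3. Mouse 5 of D0 reached into the range of every dose group, and the other D0 mice lay below all D3 mice.

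The log2 change of Ucp3 was 0.36 ± 0.11 (SE; limma adjusted p = 0.0587) at D1, 0.25 ± 0.10 (limma adjusted p = 0.222) at D2 and 0.36 ± 0.11 (limma adjusted p = 0.0325) at D3, which is 1.28-fold. The second Ucp3 probe was well above background in 0 of 18 mice and its r with the lead probe was 0.175. On slide 3, with 1 mouse per group, the D3 value differed from D0 by -0.01, against 0.35 and 0.56 on slides 1 and 2. Of 8 skeletal muscle markers, 3 were bright enough to be tested, none was called, and 1 was above background in every mouse.

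Pdk4, Acot2 and Plin2 were not called at any dose. Pdk4 (NM_013743, chromosome 6), a kinase that shuts pyruvate dehydrogenase and so spares glucose, had a mean log2 ratio of 0.51 ± 0.32 (SD, n = 5) in D0, 0.97 ± 0.59 (n = 4) in D1, 0.49 ± 0.23 (n = 5) in D2 and 0.46 ± 0.33 (n = 4) in D3. The D1 mean rests on mouse 22 at 1.85, while the other D1 mice lay at 0.62 to 0.74, and without mouse 22 the D1 change of 0.46 (limma adjusted p = 0.264) became 0.16. That mouse also had the highest mean of the cardiac (3.95), adipocyte (4.02) and skeletal muscle (1.67) marker lists. Over 18 mice with dose means subtracted, Pdk4 had r = 0.681 with the skeletal muscle list (permutation p = 0.0398, adjusted p = 0.315). Without the 2 farthest mice that r was 0.446. With the adipocyte list it was 0.457 (permutation adjusted p = 0.455) and with the cardiac list 0.384 (permutation adjusted p = 0.664). The part of such tissue in the Pdk4 value of mouse 22 was not tested.

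Acot2 (NM_134188, chromosome 12) encodes the mitochondrial relative of the Acot1 enzyme, and its gene lies next to Acot1 in a cluster of near-identical genes, so that probes can share signal between them. Its mean log2 ratio was -0.33 ± 0.13 (SD, n = 5) in D0, -0.21 ± 0.15 (n = 4) in D1, -0.40 ± 0.21 (n = 5) in D2 and -0.23 ± 0.23 (n = 4) in D3. The log2 change at D3 was 0.11, with a 95% interval of -0.14 to 0.36 (limma adjusted p = 0.608), where that of Acot1 was -0.96 to -0.25. Of the other genes of that cluster, Acot3 changed by 0.02 and Acot5 by -0.08 at D3, neither called, and Acot4 and Acot6 were not bright enough to be tested.

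Plin2 (NM_007408, chromosome 4) encodes the protein coat of lipid droplets and is abundant in lipid-laden cells. Its log2 ratio was lowest at D2, with 0.23, 0.91, 0.60, 0.37 and 0.22 in mice 26, 28, 29, 30 and 23, against 0.56, 0.94, 0.93, 0.86 and 0.97 in D0. Both groups overlapped through mouse 28 of D2 and mouse 1 of D0. The log2 change was -0.13 at D1, -0.38 ± 0.12 (SE; limma adjusted p = 0.107) at D2 and -0.19 (limma adjusted p = 0.371) at D3, and without mouse 28 the D2 change was -0.50 (limma adjusted p = 0.0194), still short of 1.5-fold.

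**Figure D3:**
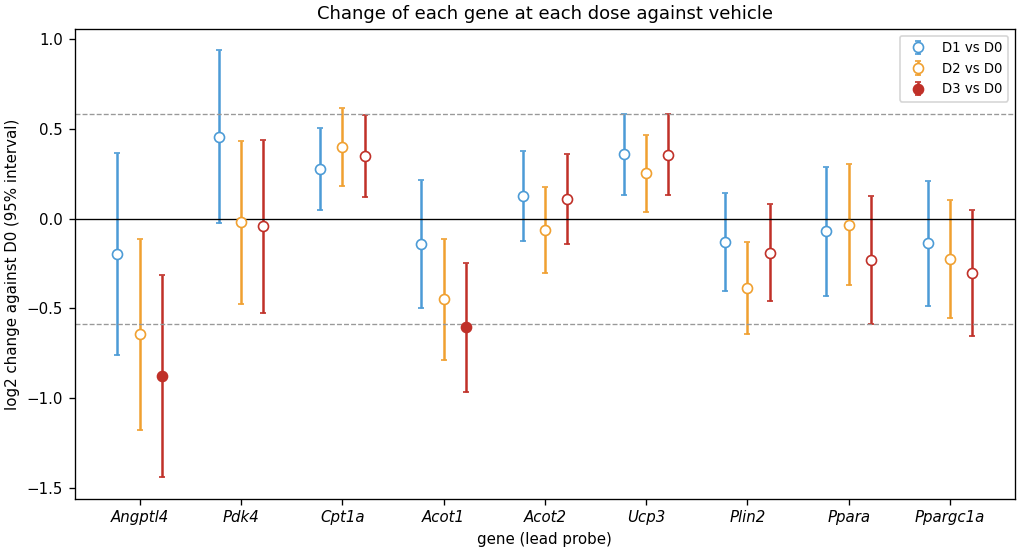
Log2 change of the lead probe of each gene against D0 (y axis) at D1, D2 and D3, with 95% intervals from the limma model and dashed lines at a 1.5-fold change. Filled points were called: Angptl4 (-0.88) and Acot1 (-0.60) at D3 only.

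The receptor itself, Ppara (NM_011144, chromosome 15), was measured by 3 probes, and none was called at any dose. Its lead probe had a mean log2 ratio of 1.22 ± 0.28 (SD, n = 5) in D0, 1.15 ± 0.23 (n = 4) in D1, 1.19 ± 0.30 (n = 5) in D2 and 0.99 ± 0.26 (n = 4) in D3. The D3 change was -0.23 by the lead probe (limma adjusted p = 0.416), and -0.13 and -0.05 by the others. By the lead probe the 8 mice of slide 1 lay between 0.74 and 1.04, and the 10 mice of the other slides between 1.16 and 1.56, with no overlap. The other probes overlapped between slides, at 1.85 to 2.30 on slide 1 against 1.97 to 2.35, and at 0.81 to 1.38 against 1.08 to 1.59.

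Ppargc1a (NM_008904, chromosome 5), a coactivator of PPARs and a driver of mitochondrial biogenesis, had means of -0.23 ± 0.33 (SD, n = 5) in D0, -0.37 ± 0.27 (n = 4) in D1, -0.46 ± 0.26 (n = 5) in D2 and -0.53 ± 0.17 (n = 4) in D3. All 4 D3 mice lay below the D0 mean but the groups overlapped, and the D3 change of -0.30 had a 95% interval of -0.65 to 0.05 (limma adjusted p = 0.255). With the red channel alone it was -0.49 (limma adjusted p = 0.0477, under 1.5-fold), where the green reference signal differed by -0.20, and with the scanner software's processed signals it was -0.51 (limma adjusted p = 0.152). Its second probe was well above background in 1 of 18 mice.

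Few other genes of the PPAR system were called. Of 19 receptors, partners and coregulators tested, Lpin1 was called, higher at D1 (0.61 ± 0.16 SE; limma adjusted p = 0.0359), where 1.19% of all genes by lead probe were called, and none was called at D2 or D3. By the adjusted p alone 6 of the 19 passed at D3, against 12.4% of all probes, and the F test called 2 (against 7.79% of all probes), Pparg and Crebbp, the latter named after its values were seen. Lpin1 encodes a phosphatidate phosphatase that also coactivates PPAR-alpha, and at D3 its change was 0.46 (limma adjusted p = 0.0703). Pparg, the gamma receptor, named here after its values were seen, was lower at D3 by less than 1.5-fold (-0.48 ± 0.11 SE; limma adjusted p = 0.00587). Its log2 ratio was 0.91 to 1.31 in the D0 mice and 0.43 to 0.80 in the D3 mice, which did not overlap.

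Of 41 further PPAR target genes tested, 0 were called at D1 and at D2, and 2 fell at D3, with a list median change of 0.05. By lead probe 2.73% of all 14735 genes were called at D3, so the count lay near the background. Fabp1, a fatty acid binding protein, changed by -0.94 ± 0.22 (SE; limma adjusted p = 0.00943) and Cidec, a lipid droplet protein, by -0.70 ± 0.21 (limma adjusted p = 0.033). Genes of fatty acid oxidation in this list, picked as examples with their values known, such as Acadm (-0.28), Hadha (-0.02), Cpt2 (0.10) and Ehhadh (0.25), were not called at D3.

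Among 26 tested relatives of the 9 genes, Cpt1c was called, higher at D3 (0.89 ± 0.12 SE; limma adjusted p = 9.54e-05), where 2.73% of all genes by lead probe were called. By the adjusted p alone 2 of the 26 passed at D3, against 12.4% of all probes, and the F test called 2, against 7.79%. Cpt1c is the brain-type isoform of carnitine palmitoyltransferase 1. Its log2 ratio was -1.18 to -0.83 in the D0 mice and -0.26 to 0.16 in the D3 mice. Its relatives Cpt1a (0.35) and Cpt1b (-0.00) were not called at D3. None of 10 glucocorticoid-induced genes was called at any dose against D0. Of all genes by lead probe, 1.19%, 0.977% and 2.73% were called at D1, D2 and D3. The F test called 1 of the 10, Klf9 (limma adjusted p = 0.0396), against 7.79% of all probes.

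Markers of other cells of the lung sample were set beside these values. Of 9 alveolar macrophage markers tested, all above background in every mouse, 2 fell at D2 (Ear1 and Siglecf) and 1 at D3 (Krt79, -1.40), where 0.977% and 2.73% of all genes by lead probe were called. The F test called these 3 of the 9, against 7.79% of all probes. The mean of the list per mouse was 3.90 to 4.19 in D0 and 3.43 to 3.71 in D3. At D3 the change was below 0 for 8 of the 9, and that of Marco, named after its values were seen, was 0.94 (limma adjusted p = 0.0745). Adipocyte markers, 7 tested, had a mean of 1.62 to 2.83 in D0 and 1.38 to 3.44 in D3. Cidec was the gene called, at D3, where 2.73% of all genes by lead probe were called. Cardiac markers, 11 tested and none called, had a mean of 1.59 to 2.35 in D0 and 0.24 to 3.33 in D3. Alveolar type 2 cell markers, 7 tested and none called, had means of 4.68 to 5.18 and 4.51 to 4.94 in D0 and D3, with a change below 0 at D3 for 6 of the 7, a median of -0.32 and 1 passing the adjusted p alone. Of 6 endothelial markers 1 was called, Pecam1, higher at D1 (0.67) and D3 (0.66), where 1.19% and 2.73% of all genes by lead probe were called. The median change of that list was -0.03 at D1 and 0.04 at D3. Its means per mouse were 5.23 to 5.74 in D0 and 5.42 to 5.76 in D3.

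Within dose groups, the 9 genes were also set against the mean of each of the 10 lists, which gave 90 relations over 18 mice. None passed the adjusted p, and 13 had an unadjusted p under 0.05. Angptl4 with alveolar type 2 cell markers had r = 0.596 (permutation p = 0.0257, adjusted p = 0.303; rho = 0.55, permutation p = 0.0345, adjusted p = 0.337; r = 0.573 without the 2 farthest mice). Angptl4 with alveolar macrophage markers had r = 0.331 (permutation p = 0.258, adjusted p = 0.664), and Acot1 had r = 0.0583 with macrophage markers (permutation p = 0.848, adjusted p = 0.966) and 0.156 with type 2 cell markers (permutation p = 0.590, adjusted p = 0.856). The highest was Ppara with endothelial markers (r = 0.772, permutation p = 0.00083, adjusted p = 0.0646; rho = 0.676, permutation p = 0.0054, adjusted p = 0.119), and Cpt1a with type 2 cell markers had r = 0.733 (permutation p = 0.00165, adjusted p = 0.0646; rho = 0.742, permutation p = 0.00116, adjusted p = 0.0652). Slide means were not subtracted in these 90 relations. The Ppara lead probe lay at 0.74 to 1.04 on slide 1 and at 1.16 to 1.56 on the others. The endothelial list mean lay at 5.23 to 5.60 on slide 1 and at 5.47 to 5.98 on the others. That of type 2 cells lay at 4.51 to 4.88 and at 4.74 to 5.22. The part of slide in these relations was not tested, nor was that of these cells in the dose differences of the 9 genes.

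Whether the genes varied together among mice of the same dose was asked after subtracting each dose group mean. Over 18 mice, 29 of the 36 pairs had an r above 0, with a median of 0.335. No pair passed the adjusted p (permutation within groups, 100000 resamples, two-sided, 36 pairs), and 9 had an unadjusted p under 0.05. The highest was Angptl4 with Cpt1a (r = 0.774, permutation p = 0.00311, adjusted p = 0.0896; rho = 0.738, permutation p = 0.00568, adjusted p = 0.102), although their D3 changes had opposite signs. Without the 2 mice farthest from the median of Angptl4 the r was 0.744.

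Angptl4 with Acot1 had r = 0.638 (permutation p = 0.00722, adjusted p = 0.0896) and rho = 0.703 (permutation p = 0.0024, adjusted p = 0.0864), and r = 0.631 without the 2 farthest mice. Acot2 with Ucp3 had r = 0.628 (permutation p = 0.00747, adjusted p = 0.0896) and rho = 0.538 (permutation p = 0.0324, adjusted p = 0.147), and r = 0.655 without the 2 farthest. The lowest was Acot2 with Ppara (r = -0.587, permutation p = 0.0239, adjusted p = 0.169; rho = -0.54, permutation p = 0.0407, adjusted p = 0.147), and r = -0.521 without the 2 farthest. This sign is not stable: the r of Acot2 with Ppara was 0.585 under median centring (permutation p = 0.0222, adjusted p = 0.0229) and -0.36 with slide means subtracted (permutation p = 0.248, adjusted p = 0.337). When slide means were subtracted as well, 5 pairs passed, among them Angptl4 with Acot1 (r = 0.788, permutation p = 0.00068, adjusted p = 0.0133; rho = 0.851, permutation p = 0.00012, adjusted p = 0.00432) and Angptl4 with Cpt1a (r = 0.763, permutation p = 0.00074, adjusted p = 0.0133; rho = 0.748, permutation p = 0.00124, adjusted p = 0.0223). The mice were still permuted within dose groups and not within slides, so these p-values make no allowance for the slide means removed and can be too small.

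**Figure D4:**
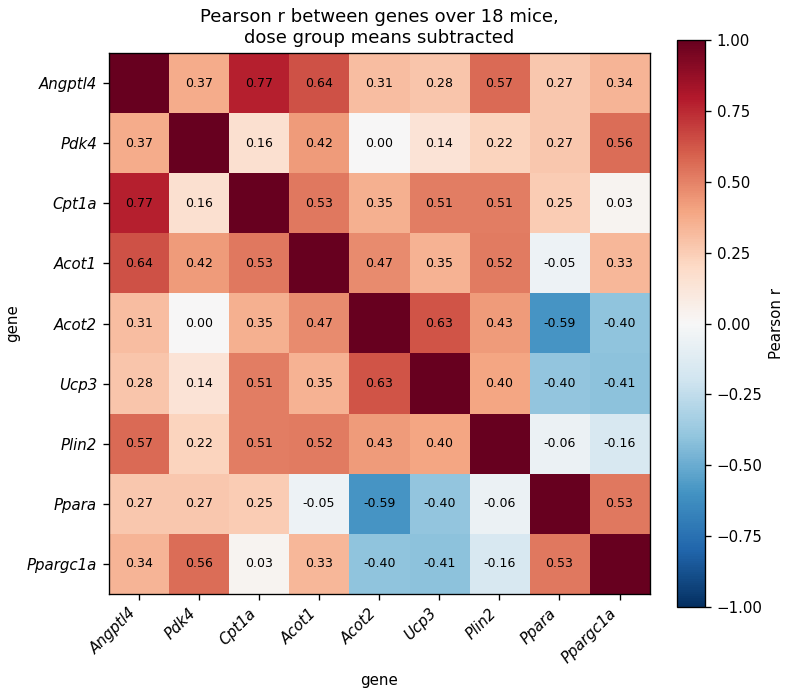
Pearson r between the lead probes of each pair of genes over 18 mice after subtracting dose group means (both axes list the 9 genes, colour and number give r). No pair passed the adjusted p. The highest r is 0.774 (Angptl4 with Cpt1a), and Ppara and Ppargc1a have r of -0.59 to -0.40 with Acot2 and Ucp3, which turned to 0.387 to 0.79 under median centring, where all 36 pairs were above 0.

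Among all genes tested, the 3 whose lead probe was most like each of the 9 over the 18 mice were named by Pearson r, as a description. For Angptl4 they were Acot1 (r = 0.805), Ksr1 (0.798) and Flcn (0.791), and for Acot1 they were Hilpda (0.831), Ksr1 (0.823) and Angptl4. Hilpda, which encodes an inhibitor of the triglyceride lipase ATGL at lipid droplets, lay between 1.88 and 2.32 in the D0 mice and between 1.38 and 1.57 in the D3 mice. For Cpt1a they were Slc25a34 (0.879), Nox4 (0.852) and Nr1d2 (0.836).

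For Ucp3 the genes were Nlrx1 (0.917), Ucp2 (0.885) and Cep120 (0.873). Ucp2, the neighbour of Ucp3 on chromosome 7, was 0.33 higher at D3 (limma adjusted p = 0.0511), and its log2 ratio was 0.85 to 1.34 in D0 and 1.18 to 1.52 in D3. For Ppara they were 1700016K19Rik (0.965), Map9 (0.955) and Wdr63 (0.944), the last a gene of the motile cilium axoneme. With slide and dose means subtracted these 3 values were 0.802, 0.794 and 0.806, and for Ucp3 with Ucp2 it was 0.832. The Ppara lead probe had a lower r, 0.552 and 0.464, with the other probes of Ppara, so its likeness may be that of 1 probe.

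For Pdk4 the genes most alike were Cap2 (0.803), Slc44a4 (0.793) and Amacr (0.779), and for Plin2 they were Trim46 (0.805), Nectin2 (0.798) and Ctss (0.784). For Acot2 they were Atxn7l3 (0.765), U2af2 (0.763) and Ddx27 (0.739), and for Ppargc1a Fam161a (0.851), Macrod1 (0.844) and Tbata (0.831). All these points share arrays, slides and dose groups.

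**Figure D5:**
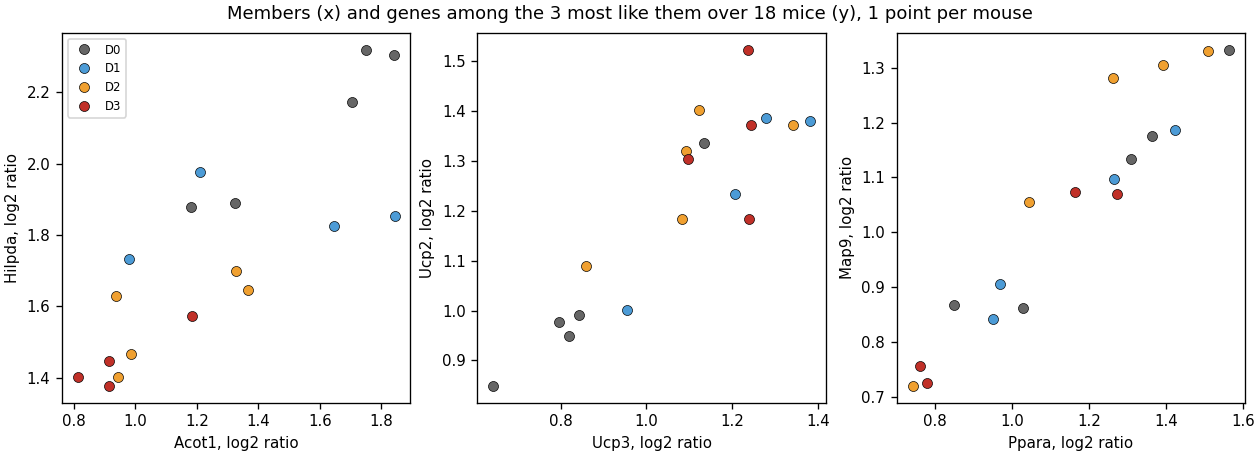
Log2 ratio of a gene among the 3 most like a member (y axis) against that member (x axis), with 1 point per mouse coloured by dose group. For Hilpda all D3 mice (1.38 to 1.57) lie below all D0 mice (1.88 to 2.32), Ucp2 overlaps between D0 and D3, and Map9 and Ppara do not order by dose.

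Whole-series facts bear on these values as follows. The arrays lay on 3 slides, each holding all 4 groups, and the array column followed the dose on every slide, so that column and dose cannot be told apart. Mouse 35 of D3 had 2 arrays, which were averaged and differed by -0.25 (Plin2) to 0.17 (Acot2) for the 9 lead probes. The lead probes of all 9 genes were well above background in every mouse.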

How the data were processed

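Lung RNA (Cy5) and reference RNA (Cy3) of 18 mice were hybridised on 19 two-colour Agilent mouse arrays. Per the file headers, the scanner software (Feature Extraction 11.0.1.1) wrote the deposited spot intensities, used here as median signals without background subtraction. The deposited log2 ratios, which the authors made by within-array LOWESS, served as an alternative, and correlated with those computed here at r of 0.995 to 0.998. Genes are named through the RefSeq accession of the probe.

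The ratios were computed in R 4.3.3 with limma 3.58.1: loess within arrays (span 0.3) after removal of the 3671 control spots, with outlier spots at weight 0 in the loess and then left out, the spots of a probe averaged, and the arrays of mouse 35 averaged. Testing was limited to probes marked as well above background in the red channel of at least 4 mice of some group, which left 30999 of 55681. One model over all groups (14 residual degrees of freedom) with empirical Bayes gave each contrast, adjusted by Benjamini-Hochberg, and a call needed adjusted p of at most 0.05 and 1.5-fold. The study's own MAANOVA test was not run. The script was tested on simulated data. The members and lists were chosen with earlier results of these data known. The named genes are the 9 members, up to 5 called genes of each list by change at D3, and the 3 genes most like each member by Pearson r. Outside this rule, with their values known, Pparg, Crebbp, Klf9, Marco, Acadm, Hadha, Cpt2, Ehhadh, Acot3, Acot5 and Cpt1b are named. The number of arrays limits the precision. Alternatives covered background correction, normalization, filters, slide, mouse 23, mouse 35, the probes of a gene and each mouse left out.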

Additional observations from a re-analysis of the deposited data

Results flagged for a closer look

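Over 36 sets of a gene and a dose group, 3 held a mouse far from the others of its group, and chance alone gives about 1 in 20 sets. In D1, Pdk4 was 1.85 in mouse 22 and 0.62 to 0.74 in the other mice, a gap of 0.903 of the group's range. In D3, Ucp3 was 1.1 in mouse 32 and 1.24 in the other 3 mice, a gap of 0.944 of a narrow range. In D0, Plin2 was 0.56 in mouse 1 and 0.86 to 0.97 in the others, a gap of 0.718 of the range.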

How the results depend on the processing

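Of 864 values of single genes under other settings, 823 kept their direction and their side of the threshold, 15 were no longer called, 26 uncalled values changed sign and no called value was reversed. With median centring in place of loess, which shifted the median of all probes by 0.17 at D1, 0.12 at D2 and 0.06 at D3, 0 genes were called at D3 and 0 for the trend, and 35 of 36 pairs passed the co-variation test in place of 0. Calls fell over the whole array in that setting, with 98 of all 30999 probes called at D3 in place of 754. With slide means subtracted 5 pairs passed, where the mice were permuted within dose groups but not within slides. The scanner software's processed signals gave 1 call at D3 (Acot1; Angptl4 had limma adjusted p = 0.054, and 0.0198 to 0.848 over all its alternatives). Counting mouse 23 in D1 gave 1 call for the trend, that of Acot1. The F test called 1 gene, Cpt1a, in place of 0 with normexp, the deposited ratios, the red channel alone, the stricter filter, slide as a block or mouse 23 in D1. Leaving out each mouse in turn gave 0 to 2 calls at D3, 0 to 2 for the trend and 0 to 2 for the F test, and the adjusted p at D3 (limma) ran from 0.0227 to 0.0917 for Angptl4 and from 0.0131 to 0.0616 for Acot1. Cpt1a and Ucp3 each passed the adjusted p at D3 in 11 of these 18 fits, and Cpt1a at D2 in 3 (adjusted p up to 0.109, limma). The promoter motif matched 2 genes with up to 2 mismatches in place of 0. No analysis paired by animal was possible because the groups held different mice. Each slide held all groups, and slide was used as a block in an alternative. The cause of these changes was not tested.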
